A study of Mus musculus with 15 samples.

Results

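Integrin and laminin genes were read out in 15 mouse mammary tumour samples by their gene symbols: the integrin alpha and beta chains and the laminin alpha, beta and gamma chains. The rule used the symbols and no measured value, and it found 36 genes of the 17271 in the table, 25 integrin chains and 11 laminin chains. Itgad, a leukocyte integrin chain on the list of classes, was not among the rows. All samples carry the labels mouse mammary tumor, p53-NULL and Balbc, and their titles place them in 4 models. 2151R had 4 samples: replicates 3 and 4 carry NT2 and NT in their titles, and replicates 1 and 2 carry other codes, none of which the labels explain. T11 had 1 sample, and 2225L had 2, replicate 1 titled T-Vivo and replicate 2 with the prefix ROSEN. 2208L had 8 samples, of which replicate 1 has the prefix ROSEN, replicates 2 to 5 are titled PBS and replicates 6 to 8 are titled 3day nt. The labels used here give no age and do not say that samples came from separate animals, so the p-values measure the spread between these samples, which may be technical. The series title concerns chemotherapy and macrophage depletion, which no sample title names, so the models are compared here.

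Integrins are receptors of 1 alpha and 1 beta chain that hold cells to the extracellular matrix or to other cells and signal through the actin cytoskeleton. Laminins are trimers of an alpha, a beta and a gamma chain and form the scaffold of the basement membrane, the thin sheet under an epithelium. In the mammary gland, integrin α6β4 holds basal cells to a laminin that contains the Lama3 and Lamb3 chains through hemidesmosomes. Leukocytes use a separate set of receptors built on the Itgb2 and Itgb7 chains and on Itga4 to adhere to vessel walls and to enter tissue.

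Promoter sequences are shown for the genes with the lowest and the highest difference between 2151R and 2208L among those with an entry in the RefSeq promoter table of GRCm38.p6, which held 26 promoters of 23 of the 36 genes. Each runs from 250 bases before to 50 bases after an annotated start site, 5′ to 3′ on the gene's strand. Capitals mark CAGGTG or its reverse complement CACCTG, the E-box letters known from the binding of the Snai and Zeb repressors. Lamb3, a laminin beta chain of epithelia, has 2 start sites, at chr1:193301744-193302043 and chr1:193301993-193302292 on the plus strand, and the windows overlap. Itgb6, an epithelial beta chain that pairs with Itgav, has 2 start sites on the minus strand, at chr2:60722554-60722853 and chr2:60673644-60673943. Itgb7, a leukocyte beta chain, lies on the minus strand at chr15:102231886-102232185, and Itga5, the alpha chain of the main fibronectin receptor, on the minus strand at chr15:103366742-103367041.
Lamb3 promoter at the first start site: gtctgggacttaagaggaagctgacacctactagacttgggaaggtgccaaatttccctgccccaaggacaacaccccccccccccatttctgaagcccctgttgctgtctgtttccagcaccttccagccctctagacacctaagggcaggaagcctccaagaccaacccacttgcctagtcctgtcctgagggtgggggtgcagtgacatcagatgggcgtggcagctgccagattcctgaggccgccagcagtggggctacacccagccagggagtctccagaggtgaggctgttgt
Lamb3 promoter at the second start site: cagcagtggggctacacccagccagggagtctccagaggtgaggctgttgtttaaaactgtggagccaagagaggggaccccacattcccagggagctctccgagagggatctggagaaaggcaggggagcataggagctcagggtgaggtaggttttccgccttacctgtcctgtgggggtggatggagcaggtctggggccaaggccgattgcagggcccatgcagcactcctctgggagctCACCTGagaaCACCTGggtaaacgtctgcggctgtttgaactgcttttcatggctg
Itgb6 promoter at the first start site: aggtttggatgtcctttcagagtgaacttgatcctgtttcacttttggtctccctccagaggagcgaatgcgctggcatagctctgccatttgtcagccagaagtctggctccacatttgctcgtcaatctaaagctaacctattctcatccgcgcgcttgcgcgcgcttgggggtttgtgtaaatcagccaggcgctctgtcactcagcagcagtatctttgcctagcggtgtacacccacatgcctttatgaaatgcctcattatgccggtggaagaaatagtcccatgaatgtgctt
Itgb6 promoter at the second start site: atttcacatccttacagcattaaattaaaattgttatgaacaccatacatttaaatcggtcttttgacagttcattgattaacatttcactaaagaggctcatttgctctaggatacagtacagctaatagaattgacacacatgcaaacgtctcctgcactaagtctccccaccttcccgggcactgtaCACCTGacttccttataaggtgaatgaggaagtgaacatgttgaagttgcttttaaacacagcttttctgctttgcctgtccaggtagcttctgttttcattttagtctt
Itgb7 promoter: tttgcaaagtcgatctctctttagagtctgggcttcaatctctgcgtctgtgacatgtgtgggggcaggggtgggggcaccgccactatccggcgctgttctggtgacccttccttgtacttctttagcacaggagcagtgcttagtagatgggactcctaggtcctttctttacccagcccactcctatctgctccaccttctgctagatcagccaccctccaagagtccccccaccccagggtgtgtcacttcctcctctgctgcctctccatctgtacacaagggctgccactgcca
Itga5 promoter: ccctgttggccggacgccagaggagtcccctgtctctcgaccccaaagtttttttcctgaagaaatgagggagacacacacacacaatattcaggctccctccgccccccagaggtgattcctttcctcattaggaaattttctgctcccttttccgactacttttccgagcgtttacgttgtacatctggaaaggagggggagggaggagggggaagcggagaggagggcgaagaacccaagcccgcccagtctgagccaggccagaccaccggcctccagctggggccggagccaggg

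The E-box letters stood in 8 of the 26 promoters, those of Lamb3, Itgb6, Lama5, Itga11, Itga9, Itga3, Itgb8 and Itgb5. They stood on either strand in 20.2% of all 32851 promoters. In the second Lamb3 promoter the 2 matches begin at positions -6 and 4, counted from 0 at the start site, and in the second Itgb6 promoter the match begins at -60. The letters TGANTCA, known from AP-1 binding, stood in 3 of the 26 promoters, those of Itgax, Itga9 and Itga3, and in 7.81% of all. A match is a description of the letters and no evidence of binding.

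Every value below is a log2 expression value that the authors centred per gene, so 0 is a gene's own reference level and levels of different genes cannot be ranked. A difference of 1 is a doubling of the authors' value, up to an offset that is not stated. Sequencing depth is unknown, and precision rests on the spread between samples. A gene is called where its Benjamini-Hochberg adjusted p in limma, over all 17271 genes, was under 0.05. In bulk tumours, fewer cells of a type and less RNA per cell cannot be told apart. The library numbers of 2151R form a range of their own, so in its comparisons the model cannot be told apart from the library range, and the 3 model comparisons share samples with each other.

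Between 2151R and 2208L, 10 of the 36 genes were called higher in 2151R and 15 lower, against 26.1% and 22.7% of all genes. The groups did not overlap in 22 of the 36 genes, against 38.8% of all genes. The median difference over the 36 genes was -0.02, against 0.10 over all genes. Between 2225L and 2208L, 0 genes were called higher and 15 lower with limma, against 15.6% and 17.3% of all genes, and 18 of the 36 had an unadjusted p under 0.05. The groups did not overlap in 15 genes, against 31.7% of all genes, and the median difference was -0.87, against -0.04 over all genes. Of the 25 integrins 13 were lower in 2225L. Between 2225L and 2151R, 9 genes were called higher in 2225L and 12 lower, against 22.8% and 25.8% of all genes. The groups of that comparison did not overlap in 23 genes, against 62.4% of all genes. The 2225L group has 2 samples, and the 15 lower calls became 12 without its replicate 1 and 13 without its replicate 2. Wherever one of them is left out, the lone 2225L sample is assumed to vary like the samples of the other groups, which supply all of the spread. Without either of them 1 gene was called higher, Lamc3 without replicate 1 and Lama1 without replicate 2.

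**Figure D1:**
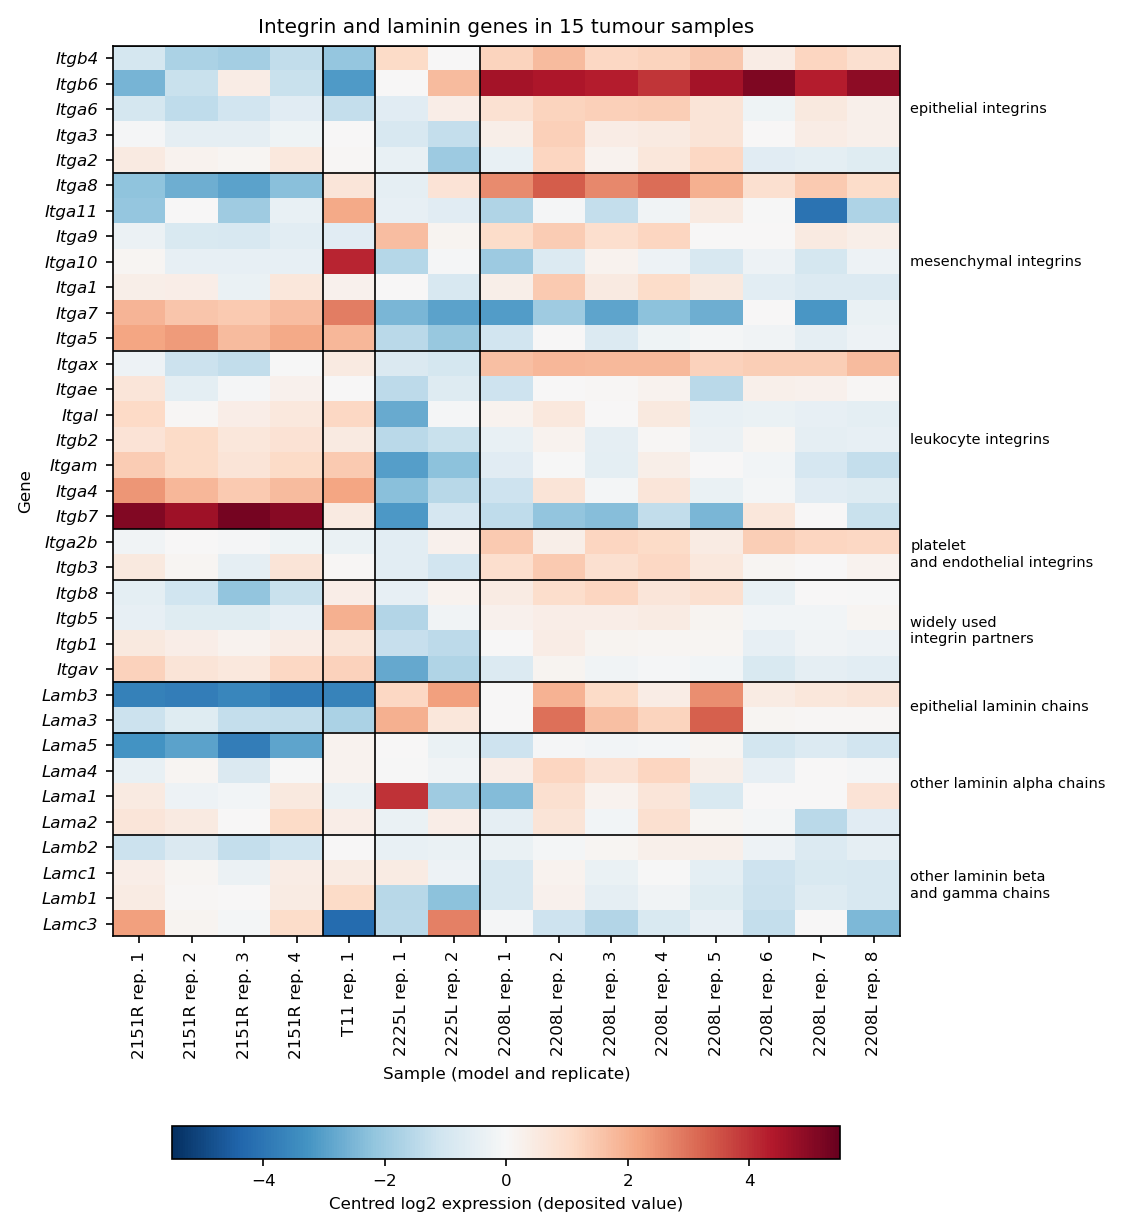
Deposited centred log2 values of 35 integrin and laminin genes (rows, by class) in the 15 samples (columns, by model); blue is below and red above the gene's reference level. Itgb7 lies between 4.68 and 5.25 in the 4 samples of 2151R, and Itgb6 between 3.92 and 5.15 in the 8 of 2208L.

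**Figure D2:**
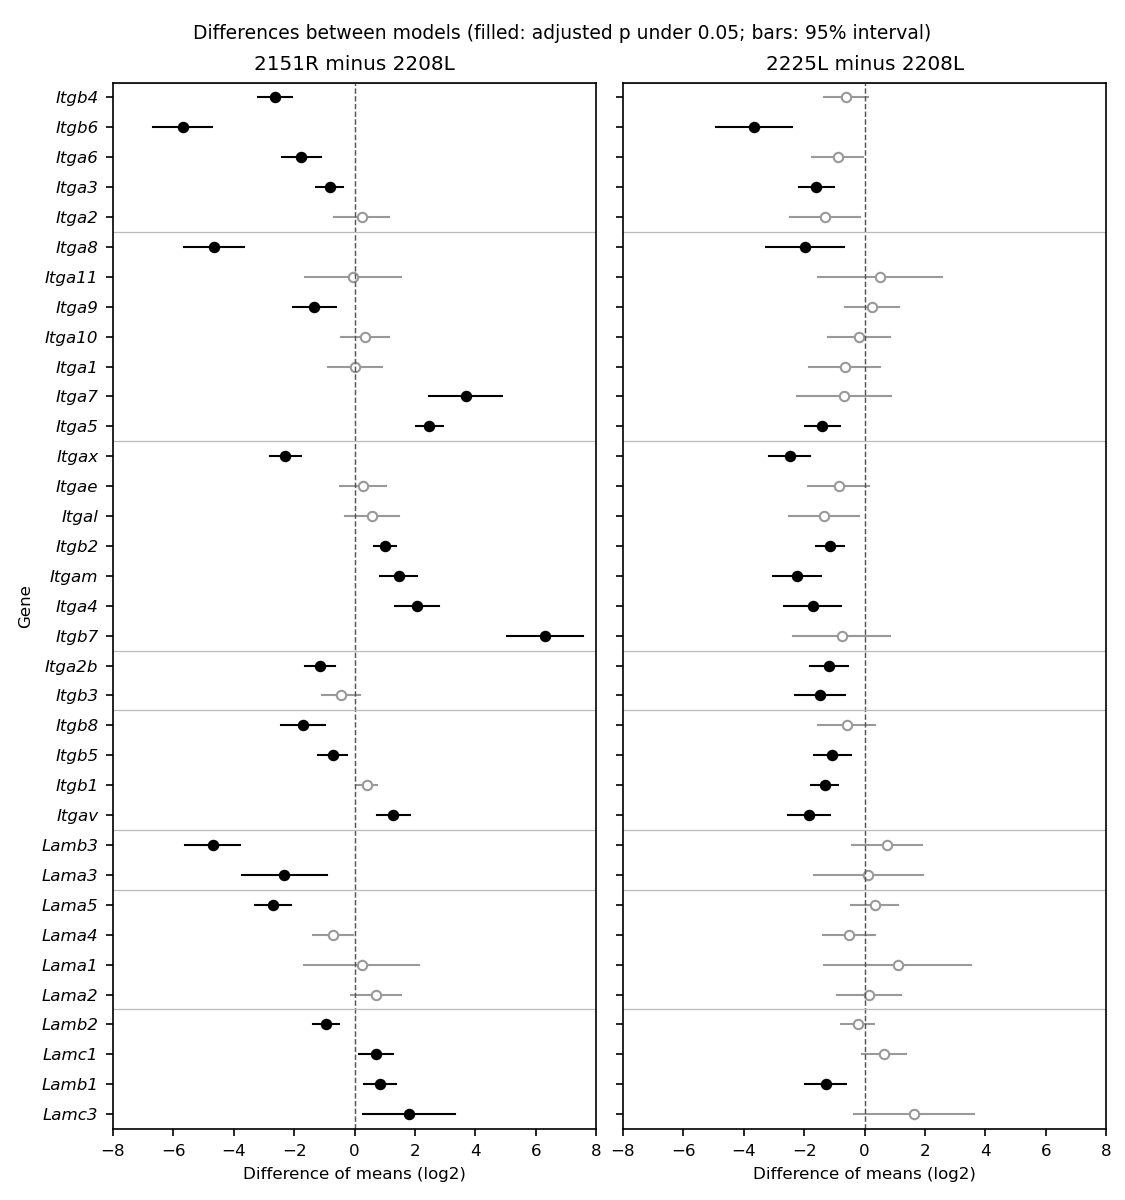
Difference of model means (log2) for 35 genes, 2151R minus 2208L on the left and 2225L minus 2208L on the right, with 95% intervals from the limma fit; filled points are called. On the left calls lie on both sides of 0, and on the right every call shown is lower.

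Most epithelial integrins were lower in 2151R than in 2208L, and T11, untested, lay below the 2208L range in the same 4 genes. For Itga3 it did so only just, at 0.015 against a lowest 2208L sample of 0.038, and it lay above all 2151R samples. Of the 5 genes of this class, Itgb6, Itgb4, Itga6 and Itga3 were called lower in 2151R, and Itga2, an alpha chain of a collagen receptor, was not called (difference 0.24, 95% interval -0.67 to 1.14). Itgb6 was -2.54, -1.24, 0.39 and -1.22 in replicates 1 to 4 of 2151R, -3.11 in T11, and 0.00 and 1.76 in 2225L. In the 8 samples of 2208L it ran from 3.92 through a median of 4.51 to 5.15. All 7 other samples thus lay below the whole 2208L range, and the difference of 2151R from 2208L was -5.68 (SE 0.45, adjusted p = 2.95e-07). The difference of 2225L from 2208L was -3.65 (SE 0.58, adjusted p = 0.000423).

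Itgb4, the beta chain of the hemidesmosome, was -0.99, -1.72, -1.88 and -1.34 in 2151R, -2.13 in T11, and 1.06 and 0.00 in 2225L. In 2208L it ran from 0.39 through 1.19 to 1.73. The 2151R samples did not overlap with either 2225L or 2208L: the difference from 2208L was -2.63 (SE 0.26, adjusted p = 2.64e-06). 2225L was 2.01 above 2151R (SE 0.37, adjusted p = 0.000659), and its difference from 2208L was not called (-0.62, 95% interval -1.36 to 0.11). Itga6, the alpha partner of Itgb4 and also of Itgb1, was -0.95, -1.38, -1.06 and -0.63 in 2151R, -1.30 in T11, and -0.64 and 0.38 in 2225L. The 8 samples of 2208L ran from -0.22 through 0.77 to 1.36. The 2151R samples lay below every 2208L sample (difference -1.76, SE 0.30, adjusted p = 0.000335), and replicate 2 of 2225L lay within the 2208L range (-0.88, 95% interval -1.73 to -0.03, adjusted p = 0.103).

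Itga3, which pairs with Itgb1 as a laminin receptor, was lower in 2151R by a smaller amount (difference -0.82, SE 0.21, adjusted p = 0.00494) and lowest in 2225L, at -0.90 and -1.29. Its difference of 2225L from 2208L was -1.60 (SE 0.27, adjusted p = 0.000581). The 2225L calls against 2151R for Itga2 (-1.55, adjusted p = 0.0449) and Itga3 (-0.77, adjusted p = 0.0425) were lost when any of replicates 1, 2 and 4 of 2151R or replicate 2 of 2225L was left out, and that for Itga2 also without replicate 3 of 2151R. That for Itgb6 (2.03, adjusted p = 0.0188) was lost without replicate 2 of 2225L.

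The epithelial laminin chains Lamb3 and Lama3 moved together: 2151R was called below 2208L for both, and 2225L above 2151R. Lamb3, the beta chain, was -3.73, -3.79, -3.57 and -3.84 in 2151R, -3.68 in T11, and 1.15 and 2.25 in 2225L. Across 2208L its values ran from 0.00 through 0.67 to 2.57. The 2151R samples and T11 spanned less than 0.3 log2 units and lay below every sample of the other models (difference from 2208L -4.70, SE 0.42, adjusted p = 8.58e-07). 2225L was 5.43 above 2151R (SE 0.59, adjusted p = 7.51e-06), and from 2208L it differed by 0.73, which was not called (95% interval -0.43 to 1.90). Lama3, the alpha chain, was -1.20, -0.67, -1.33 and -1.37 in 2151R, -1.73 in T11, and 1.95 and 0.64 in 2225L. Its range in 2208L was 0.00 to 3.30, with a median of 0.66, a wider spread than that of Lamb3. The difference of 2151R from 2208L was -2.32 (SE 0.65, adjusted p = 0.00937), and that of 2225L from 2208L was 0.12, not called (95% interval -1.69 to 1.92). The higher value of Lama3 in 2225L than in 2151R (2.44, SE 0.92, adjusted p = 0.0414) was lost as a call without replicate 1, 3 or 4 of 2151R or without either sample of 2225L.

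**Figure D3:**
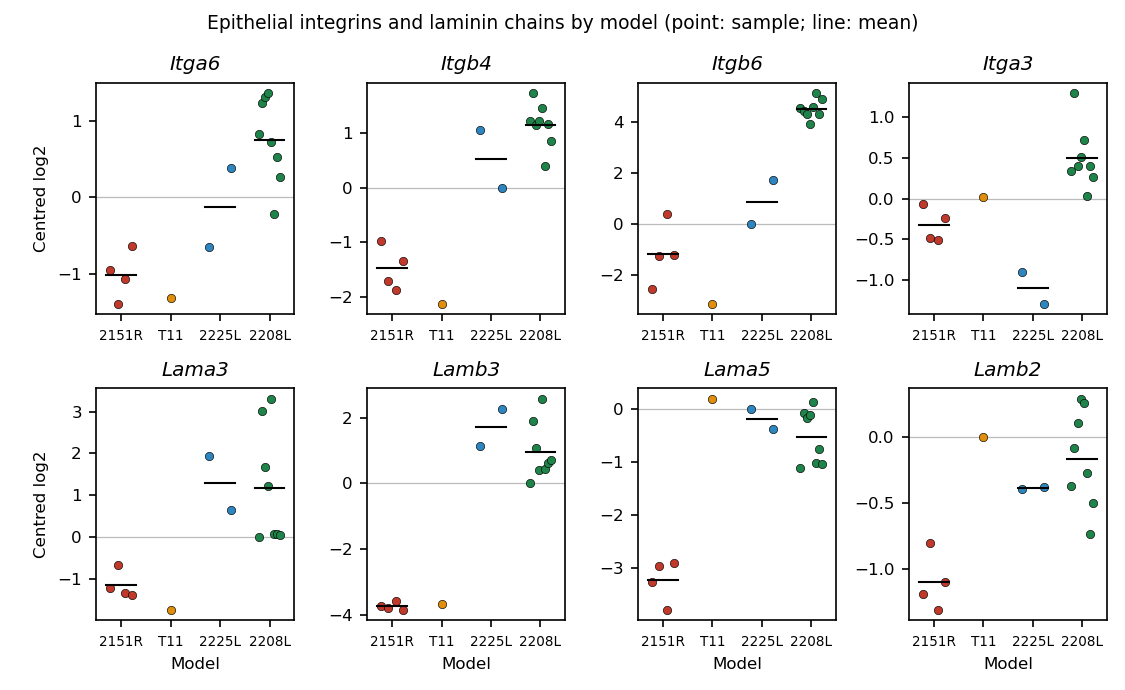
Centred log2 values of 4 epithelial integrins (top) and 4 laminin chains (bottom) by model; each point is a sample and the line the mean where a model has more than 1 sample. Lamb3 lies between -3.84 and -3.57 in 2151R and at -3.68 in T11, below all samples of 2225L and 2208L.

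In 2151R most markers of epithelial cells moved with these genes. Of 10 such markers 9 were called lower in 2151R than in 2208L and 1, Krt19, higher, against 22.7% and 26.1% of all genes. The mean over the list ran from -5.22 to -4.11 in 2151R and was -8.96 in T11. It ran from 0.25 to 1.001 in 2208L and from 1.19 to 1.22 in 2225L. Between 2225L and 2208L, 1 of these markers was called higher and 0 lower, against 15.6% and 17.3% of all genes. The epithelial integrins did not follow there, with Itgb6 and Itga3 called lower and 0 higher. Of 9 mesenchymal markers 5 were higher in 2151R (Cdh2, Prrx1, Vim, Zeb1 and Zeb2) and 1 lower (Twist1), with list means of 0.59 to 0.999 in 2151R, 1.74 in T11, -1.87 to -1.60 in 2225L and -1.17 to -0.14 in 2208L. Of 6 basal epithelial markers 5 were higher in 2225L than in 2208L, all but Dsg3, and its 2 samples stood at list means of 4.08 and 6.34. In 2151R 4 basal markers were lower than in 2208L (Dsg3, Krt14, Krt17 and Trp63) and Krt5 was higher. These markers were named after their values were seen, and their part in the integrin and laminin differences was not tested. Centred values cannot show whether a marker is at 0.

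The 7 mesenchymal integrins divided. Itga7 and Itga5 were called higher in 2151R than in 2208L, Itga8 and Itga9 lower, and Itga1, Itga10 and Itga11, which are alpha chains of collagen receptors, were not called, with differences from -0.07 to 0.34. Itga5, the fibronectin receptor chain, was 2.16, 2.36, 1.74 and 2.10 in 2151R, 1.82 in T11, and -1.47 and -2.09 in 2225L. From lowest to highest, 2208L spanned -1.06 to 0.00 around a median of -0.25. The models formed 3 levels that did not overlap: 2151R was 2.48 above 2208L (SE 0.21, adjusted p = 5.49e-07), and 2225L differed from 2208L by -1.39 (SE 0.27, adjusted p = 0.00174).

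Some markers of fibroblasts and adipocytes were higher in 2151R. Of 7 fibroblast markers 3 were called higher than in 2208L (Dcn by 3.56, Pdgfra by 2.10 and Col3a1 by 1.47) and 0 lower, against 26.1% and 22.7% of all genes. The fibroblast list means were 0.75 to 1.82 in 2151R, 0.67 in T11, -0.51 and -0.43 in 2225L and -1.68 to 1.19 in 2208L. Of 7 adipocyte markers 3 were higher (Pck1, Lep and Fabp4) and 0 lower, with list means of 2.47 to 5.49 in 2151R, -0.40 in T11, -2.62 and 2.54 in 2225L and -3.28 to 3.07 in 2208L. Of these lists 0 markers were called between 2225L and 2208L in limma, and 0 had an unadjusted p under 0.05. Their part in the integrin differences was not tested.

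Itga7, a laminin receptor chain best known from skeletal muscle, was 1.86, 1.51, 1.43 and 1.70 in 2151R, 2.81 in T11, and -2.50 and -2.96 in 2225L. In 2208L it ran from -3.20 through -2.47 to 0.00, and 2151R was 3.68 higher (SE 0.56, adjusted p = 0.00012). The 2 highest 2208L samples, replicate 6 at 0.00 and replicate 8 at -0.38, were also those in which 10 skeletal muscle markers had a mean of 10.10 and 9.53. In 2151R the muscle mean was 6.15 in replicate 3, where Itga7 was lowest in its group. Without these 3 samples the difference was 4.36 (limma adjusted p = 8.35e-07). The part of muscle in the Itga7 values was not tested.

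Itga8, which pairs with Itgb1 and binds nephronectin, was -2.22, -2.67, -2.96 and -2.31 in 2151R, 0.67 in T11, and -0.48 and 0.74 in 2225L. The 8 samples of 2208L ran from 0.89 through 2.28 to 3.31, above all samples of the other models. The difference of 2151R from 2208L was -4.65 (SE 0.46, adjusted p = 2.44e-06). That of 2225L from 2208L was -1.98 (SE 0.60, adjusted p = 0.0215), a call that was lost without replicate 1 of 2225L. Itga9, which pairs with Itgb1 and binds tenascin, was lower in 2151R than in 2208L (difference -1.33, SE 0.32, adjusted p = 0.00417) and was not called between 2225L and 2208L (0.24, 95% interval -0.66 to 1.15).

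Among the 7 leukocyte integrins, Itgb7, Itga4, Itgam and Itgb2 were called higher in 2151R than in 2208L and Itgax lower. In 2225L, Itgax, Itgam, Itga4 and Itgb2 were called lower than in 2208L and none higher. Itgal, the alpha chain of LFA-1, and Itgae, which with Itgb7 binds E-cadherin, were called in neither comparison with 2208L.

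Itgb7, the beta partner of Itga4 and Itgae, was 5.09, 4.68, 5.25 and 5.01 in 2151R, 0.49 in T11, and -3.17 and -0.93 in 2225L. Across 2208L its values ran from -2.51 through -1.39 to 0.62. The 2151R samples lay more than 4 log2 units above every other sample, with a mean 6.31 above that of 2208L (SE 0.58, adjusted p = 1.15e-06). The difference of 2225L from 2151R was -7.06 (SE 0.82, adjusted p = 1.32e-05). T11, which like 2151R was low in Itgb6, Itgb4, Itga6, Lamb3 and Lama3, lay inside the 2208L range for Itgb7. For Itgb7 the difference of 2225L from 2208L was not called (-0.75, 95% interval -2.36 to 0.86). Itga4, its alpha partner, was 2.43, 1.84, 1.43 and 1.75 in 2151R, 2.17 in T11, and -2.31 and -1.53 in 2225L. Its range in 2208L was -1.14 to 0.71, with a median of -0.24, so that T11 lay within 2151R for this gene (2151R minus 2208L 2.07, SE 0.34, adjusted p = 0.000219). The lower Itga4 of 2225L against 2208L (-1.71, SE 0.44, adjusted p = 0.00928) was lost as a call without replicate 1 of 2225L.

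Itgb2, the beta chain that the Itgal, Itgam and Itgax chains share, was 0.75, 1.04, 0.60 and 0.78 in 2151R, 0.50 in T11, and -1.48 and -1.24 in 2225L. From lowest to highest, 2208L spanned -0.51 to 0.17 around a median of -0.35. The 3 replicated models did not overlap: 2151R was 1.02 above 2208L (SE 0.17, adjusted p = 0.000213) and 2225L differed from 2208L by -1.14 (SE 0.21, adjusted p = 0.00136). Itgam, the alpha chain of the complement receptor of myeloid cells, was 1.39, 1.04, 0.72 and 1.06 in 2151R, 1.43 in T11, and -3.05 and -2.24 in 2225L. In 2208L it ran from -1.33 through -0.34 to 0.30. The order of the 3 replicated models was that of Itgb2. In limma 2151R was 1.46 above 2208L (SE 0.29, adjusted p = 0.000938) and 2225L at -2.24 from it (SE 0.37, adjusted p = 0.00056). T11 lay below the 2151R range for Itgb2 and above it for Itgam.

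Itgax, an alpha chain of dendritic cells and macrophages, was -0.26, -1.16, -1.37 and -0.02 in 2151R, 0.50 in T11, and -0.80 and -0.97 in 2225L. The 8 samples of 2208L ran from 1.27 through 1.69 to 1.83, above all other samples. The differences from 2208L were -2.30 for 2151R (SE 0.24, adjusted p = 3.8e-06) and -2.48 for 2225L (SE 0.31, adjusted p = 5.79e-05). Itgam, at chr7:128062640-128118491, and Itgax, at chr7:128129526-128150657 in GRCm38.p6, are neighbours in the genome and were called in opposite directions in 2151R.

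**Figure D4:**
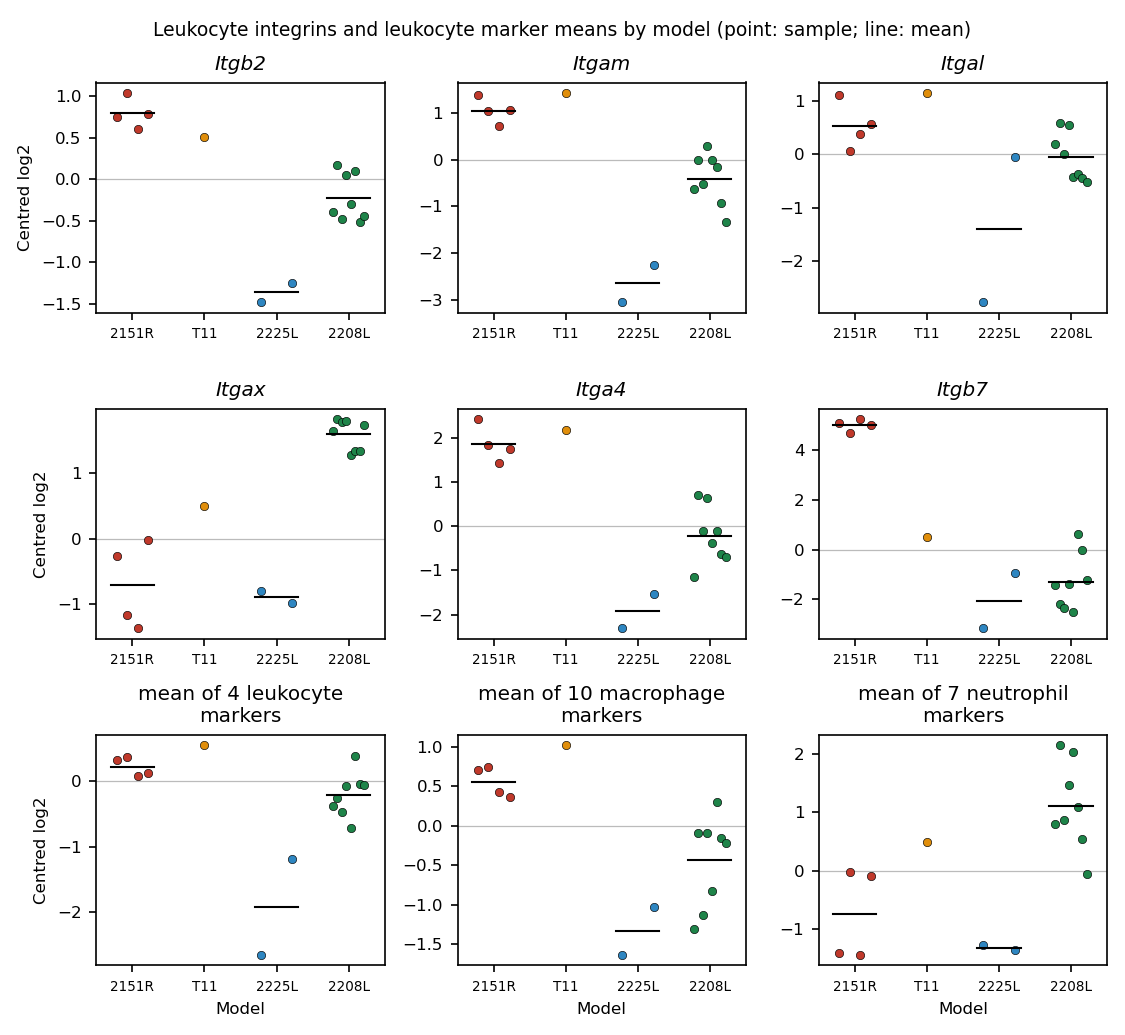
Centred log2 values of 6 leukocyte integrins and the means of 3 leukocyte marker lists by model; each point is a sample and the line the mean where a model has more than 1 sample. Itgax lies between 1.27 and 1.83 in the 8 samples of 2208L and at or below 0.50 in the 7 others, whereas Itgb2 and Itgam lie lowest in 2225L.

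The leukocyte markers moved in part with these genes, and their part in the differences was not tested. For each list here, the shares of all genes called higher and lower were 26.1% and 22.7% in 2151R and 15.6% and 17.3% in 2225L. The dendritic cell and T cell counts below did not exceed these shares. Of 4 genes of all leukocytes, 1 was higher in 2151R than in 2208L (Ptprc), and all 4 were lower in 2225L. The list means ran from 0.08 to 0.37 in 2151R, from -2.65 to -1.19 in 2225L and from -0.71 to 0.38 in 2208L, with T11 at 0.55. Of 10 macrophage markers 7 were higher in 2151R, and in 2225L 5 were lower: Adgre1, C1qa, C1qc, Csf1r and Msr1. The macrophage list means were 0.36 to 0.74 in 2151R, 1.02 in T11, -1.63 to -1.03 in 2225L and -1.31 to 0.30 in 2208L. Of 7 neutrophil markers 4 were lower in 2151R (Cd177, Retnlg, S100a8 and S100a9) and 5 in 2225L (Csf3r, Cxcr2, Retnlg, S100a8 and S100a9), with list means of -1.43 to -0.02, -1.36 to -1.27 and, in 2208L, -0.05 to 2.14. Of 6 dendritic cell markers Flt3 was higher and Zbtb46 lower in 2151R, and Zbtb46 was lower in 2225L. The dendritic list means were 0.59 to 1.27 in 2151R, -1.41 to -0.37 in 2225L and -1.84 to 2.15 in 2208L. Of 9 T cell markers Cd28 and Cd4 were higher in 2151R and Lck in 2225L, and the list means ran from -0.02 to 0.67, from -1.44 to 1.22 and, in 2208L, from -2.14 to 0.90. Among the called markers of these lists the differences of 2151R from 2208L ran from -4.95 for Cd177 to 3.16 for Flt3.

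Both platelet and endothelial integrins, the chains of the fibrinogen receptor αIIbβ3, were called lower in 2225L than in 2208L. Itga2b was -0.19, 0.00, -0.08 and -0.23 in 2151R, -0.37 in T11, and -0.57 and 0.23 in 2225L. Across 2208L its values ran from 0.32 through 1.16 to 1.43, above all other samples. The differences from 2208L were -1.14 for 2151R (SE 0.23, adjusted p = 0.00106) and -1.18 for 2225L (SE 0.29, adjusted p = 0.0078), the second lost without replicate 1 of 2225L. Itgb3, which also pairs with Itgav, was 0.53, 0.11, -0.49 and 0.69 in 2151R, 0.07 in T11, and -0.57 and -1.05 in 2225L. Its range in 2208L was 0.02 to 1.44, with a median of 0.72, overlapping with 2151R (difference -0.45, 95% interval -1.09 to 0.19). The Itgb3 difference of 2225L from 2208L was -1.47 (SE 0.38, adjusted p = 0.0104), and it was lost as a call without replicate 2 of 2225L. Of 4 platelet markers limma called 0 in 2151R and 0 in 2225L (2 and 0 at an unadjusted p under 0.05). Of 8 endothelial markers 6 were higher in 2151R, and 0 were called in 2225L (0 at an unadjusted p under 0.05). Over all genes, 26.1% were called higher and 22.7% lower in 2151R, and 15.6% and 17.3% in 2225L. The part of these markers was not tested.

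Of the 4 widely used chains, Itgav was called higher in 2151R than in 2208L and the Itgav-binding beta chains Itgb8 and Itgb5 lower, and in 2225L Itgav, Itgb1 and Itgb5 were called lower. Itgav, the alpha chain of the vitronectin receptors, was 1.26, 0.69, 0.58 and 1.12 in 2151R, 1.27 in T11, and -2.80 and -1.65 in 2225L. From lowest to highest, 2208L spanned -0.86 to 0.13 around a median of -0.35. 2151R was 1.29 above 2208L (SE 0.25, adjusted p = 0.000796), and 2225L stood at -1.85 from it (SE 0.32, adjusted p = 0.000755). Itgb1, the most widely shared beta chain, was 0.53, 0.38, 0.18 and 0.42 in 2151R, 0.72 in T11, and -1.25 and -1.43 in 2225L. In 2208L it ran from -0.47 through 0.05 to 0.41. The 2225L samples lay below all others (difference from 2208L -1.32, SE 0.21, adjusted p = 0.000349), and the difference of 2151R from 2208L was 0.40 and not called (95% interval 0.05 to 0.74, adjusted p = 0.0536). That difference was called without replicate 2 of 2208L.

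Itgb8, which with Itgav activates latent TGF-beta, was -0.54, -1.10, -2.18 and -1.21 in 2151R, 0.37 in T11, and -0.46 and 0.20 in 2225L. The 8 samples of 2208L ran from -0.41 through 0.56 to 1.17. All 2151R samples lay below the 2208L range (difference -1.72, SE 0.34, adjusted p = 0.000934), and 2225L was not called (-0.59, 95% interval -1.54 to 0.36). Itgb5, another partner of Itgav, was called lower in 2151R (-0.72, SE 0.22, adjusted p = 0.0163) and in 2225L (-1.06, SE 0.29, adjusted p = 0.0121), and stood at 1.98 in T11. The Itgb5 call in 2225L was lost without its replicate 1, and that in 2151R without the 3 samples high in skeletal muscle genes, where the difference was -0.75 (adjusted p = 0.0507).

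Among the other laminin chains, Lama5, the alpha chain found in most adult basement membranes, was -3.27, -2.96, -3.79 and -2.90 in 2151R, 0.19 in T11, and 0.00 and -0.38 in 2225L. Across 2208L its values ran from -1.12 through -0.46 to 0.13. The 2151R samples lay more than 1 log2 unit below all others (difference from 2208L -2.71, SE 0.28, adjusted p = 3.29e-06, and 2225L 3.04 above 2151R, SE 0.39, adjusted p = 3.4e-05). 2225L and 2208L were not called different (0.33, 95% interval -0.44 to 1.11). Lama1, Lama2 and Lama4 were not called in any comparison of models, with differences of 2151R from 2208L of 0.24, 0.71 and -0.70.

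Lamb1, the beta chain of many laminins, was 0.46, 0.07, 0.00 and 0.43 in 2151R, 1.05 in T11, and -1.52 and -2.25 in 2225L. Its range in 2208L was -1.19 to 0.23, with a median of -0.68, overlapping with 2151R. The difference of 2151R from 2208L was 0.83 (SE 0.24, adjusted p = 0.012), and that of 2225L from 2208L was -1.29 (SE 0.31, adjusted p = 0.00687), lost as a call without replicate 2 of 2225L. Lamb2, a beta chain of muscle and kidney laminins, was -1.19, -0.81, -1.31 and -1.10 in 2151R, 0.00 in T11, and -0.39 and -0.38 in 2225L. From lowest to highest, 2208L spanned -0.74 to 0.29 around a median of -0.18, above all 2151R samples (difference -0.94, SE 0.20, adjusted p = 0.00153).

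Lamc3, a gamma chain, was 2.25, 0.16, -0.12 and 1.02 in 2151R, -4.23 in T11, and -1.48 and 2.77 in 2225L. In 2208L it ran from -2.47 through -0.98 to 0.00. Its values overlapped between 2151R, 2225L and 2208L, and T11 lay below all other samples. The higher mean of 2151R than of 2208L (1.81, SE 0.71, adjusted p = 0.0495) was lost as a call without any of replicates 1, 2 and 4 of 2151R or 2, 3, 4, 5, 6 and 8 of 2208L. Lamc1, the gamma chain of most laminins, was higher in 2151R than in 2208L by 0.72 (SE 0.26, adjusted p = 0.0356), a call lost without replicates 1, 2 or 4 of 2151R or 1, 6, 7 or 8 of 2208L.

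T11 has 1 sample, so its values carry no test and are set against the ranges of the other models. Of the 36 genes it lay above the range of 2151R in 17, within it in 10 and below it in 9, against 39.9%, 29.3% and 30.8% of all genes. Against 2208L it lay above in 14, within in 10 and below in 12 (35.8%, 42.5% and 21.7% of all genes). Against the 2 samples of 2225L it lay above in 24, within in 4 and below in 8 (45.5%, 19.5% and 35.0%).

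Of the 5 epithelial integrins T11 lay below the 2208L range in 4, all but Itga2. For Itga3 the gap was small (0.015 against 0.038), and T11 lay above the 2151R range. Lamb3 and Lama3 lay below the 2208L range too, and Lamb3 lay within that of 2151R. Among mesenchymal integrins T11 lay above both 2151R and 2208L in Itga10, Itga11 and Itga7. Itga10 was 4.19 in T11, against -0.46 to 0.11 in 2151R, -1.55 and -0.09 in 2225L and -2.01 to 0.21 in 2208L. Itga11 was 2.07 in T11, against -2.12 to 0.00 in 2151R, -0.46 and -0.62 in 2225L and -4.07 to 0.49 in 2208L. T11 thus exceeded the highest other sample by more than 1.5 log2 units in both of these collagen receptor chains. Lama5 and Itgb7 separated T11 from 2151R: Lama5 was 0.19 in T11 and at most -2.90 in 2151R, and Itgb7 was 0.49 in T11 and at least 4.68 in 2151R.

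**Figure D5:**
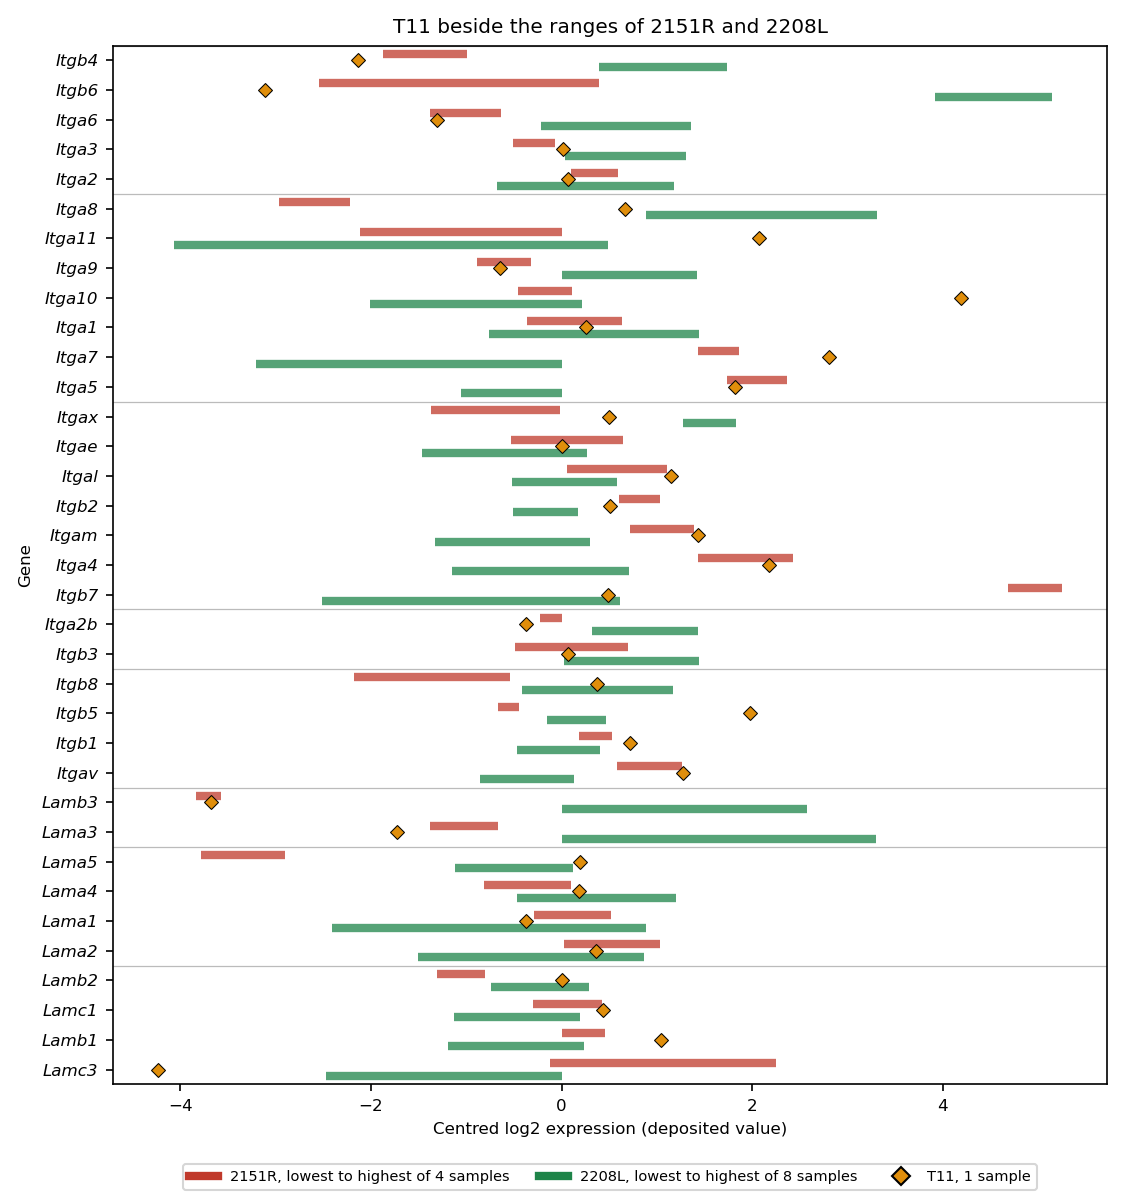
Deposited centred log2 values of T11 (diamond, 1 sample) for 35 genes beside the lowest-to-highest range of 2151R (red bars, 4 samples) and 2208L (green bars, 8 samples); no test applies. Itga10 at 4.19, Itga11 at 2.07 and Itgb5 at 1.98 lie above both ranges, and Itgb6 at -3.11 and Lamc3 at -4.23 below both.

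The genes that work with integrins and laminins changed in both directions. Of 28 adaptor and signalling genes 16 were called higher in 2151R than in 2208L and 3 lower (Fermt1, Actn4 and Vasp), against 26.1% and 22.7% of all genes. In 2225L 4 were higher (Sharpin, Src, Tln2 and Tns4) and 3 lower (Bcar1, Fermt3 and Lims1), against 15.6% and 17.3% of all genes. Fermt1, the kindlin of epithelia, which activates integrins from inside the cell, was -6.72, -7.23, -6.75 and -6.33 in 2151R, -7.09 in T11, and 0.36 and 0.39 in 2225L. It ran from 0.13 to 1.87 in 2208L, so that 2151R and T11 lay at least 6 log2 units below the rest (2151R minus 2208L -7.91, SE 0.27, adjusted p = 7.61e-11). Parvb, a parvin of the complex with integrin-linked kinase, was higher in 2151R by 4.67 (SE 0.36, adjusted p = 1.89e-07), and Tns2, a tensin that binds integrin tails, by 2.76 (SE 0.27, adjusted p = 2.37e-06). Both were also above the 2208L range in T11, at 2.46 and 1.76.

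Of 6 hemidesmosome and laminin-binding partners, Col17a1, Dst, Plec and Cd151 were higher in 2151R and Dag1 lower, against 26.1% and 22.7% of all genes. The first 4 went in the reverse of the direction of Itgb4. Dag1, dystroglycan, a laminin receptor that is no integrin, differed by -2.57 (SE 0.24, adjusted p = 1.44e-06). Dst, dystonin, differed by 2.34 (SE 0.42, adjusted p = 0.00045) and Plec, plectin, which links integrin β4 to keratin filaments, by 1.98 (SE 0.19, adjusted p = 2.22e-06). In 2225L Col17a1 (5.48) and Bcam (2.57) were higher than in 2208L, and Dag1 (-1.29) and Dst (-2.61) lower, against 15.6% and 17.3% of all genes.

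Of 16 basement membrane partners 14 were in the table, and 5 were higher (Col7a1, Hspg2, Nid1, Nid2 and Ntn4) and 5 lower (Agrn, Col4a4, Col4a5, Col4a6 and Frem2) in 2151R than in 2208L. For this list and the next, the shares of all genes called higher and lower were 26.1% and 22.7% in 2151R and 15.6% and 17.3% in 2225L. Col4a6 and Col4a5, neighbouring collagen IV chains, differed by -6.41 (SE 0.47, adjusted p = 1.22e-07) and -3.94 (SE 0.44, adjusted p = 8e-06). Frem2 differed by -2.18 (SE 0.53, adjusted p = 0.00393) in 2151R and was higher in 2225L than in 2208L by 5.26. In 2225L it was the 1 gene of the list called higher, beside 5 lower (Col18a1, Col4a4, Col4a5, Col4a6 and Npnt). Of 22 other ligands 20 were in the table, 7 higher and 5 lower in 2151R (Cdh1, F11r, Mfge8, Spp1 and Thbs1). Cdh1, E-cadherin, the ligand of the receptor of Itgae and Itgb7, differed by -5.84 (SE 0.18, adjusted p = 3.63e-11). Vcam1, the vessel-wall ligand of Itga4 with Itgb1 or Itgb7, was higher by 4.31 (SE 0.33, adjusted p = 2.03e-07), and lay at 3.37 to 3.90 in 2151R, at 3.65 in T11 and at most at 0.00 in 2208L. F11r, a junction protein that binds Itgal, differed by -3.95 (SE 0.14, adjusted p = 1.48e-10). In 2225L 2 ligands were higher than in 2208L (Icam1 and Ltbp1) and 5 lower (Edil3, Fn1, Spp1, Thbs2 and Tnc).

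Within 2208L, 14 of the 36 genes were called higher in the 4 PBS samples than in the 3 titled 3day nt, and Itgb7 was called lower, against 17.4% and 16.5% of all genes. The groups did not overlap in 18 of the 36 genes, against 44.8% of all genes, and the median difference was 0.63, against -0.05 over all genes. The 14 were Lama3, Itga8, Itga1, Itga2, Itgb8, Lama4, Itga6, Itgb3, Lama5, Lamc1, Lamb2, Itgav, Itgb1 and Itgb5, with differences from 2.23 down to 0.40, and they included all 4 widely used chains. Lama3 was 3.01, 1.67, 1.23 and 3.30 in PBS and 0.09, 0.07 and 0.05 in 3day nt (difference 2.23, SE 0.52, adjusted p = 0.0194). Itga1, a collagen receptor chain, was 1.45, 0.51, 1.01 and 0.54 in PBS and -0.58, -0.76 and -0.75 in 3day nt (difference 1.57, SE 0.24, adjusted p = 0.0066). Itgb7 was -2.17, -2.34, -1.37 and -2.51 in PBS and 0.62, 0.00 and -1.22 in 3day nt (difference -1.90, SE 0.47, adjusted p = 0.0244). The PBS and 3day nt groups of each of these 3 genes did not overlap.

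Skeletal muscle markers were high in 2 of the 3 3day nt samples. Their list mean was 9.53 and 10.10 in replicates 8 and 6, 1.48 in replicate 7, which lies inside the PBS range of -2.90 to 2.69. Of the 10 markers limma called 1 lower in PBS, Pvalb, against 16.5% of all genes, and 9 had an unadjusted p under 0.05. The differences of PBS from 3day nt over these markers ran from -9.48 to -4.53. Leaving out the 3 samples high in skeletal muscle genes leaves a lone 3day nt sample. It has no spread of its own, so only the sizes of the differences are given for that run. The differences of Lama3 (2.24), Itga1 (1.63) and Itgb7 (-2.10) were about as large without those samples. Among the other called genes, those of Itgb3, Itgb5 and Lamb2 were larger. Those of Itga8 (1.32), Itga6 (0.62), Itga2, Itgb8, Lama4, Lama5, Lamc1, Itgav and Itgb1 were smaller, in the same direction. Higher calls fell to 6 without replicate 6, to 4 without replicate 8 and to 9 without replicate 2 or replicate 3. The Itgb7 call was lost without replicate 2, 3, 6 or 7, and also with sample weights. In the comparison of all 7 samples, 5 of 7 neutrophil markers were higher in PBS (Cd177, Csf3r, Cxcr2, S100a8 and S100a9), against 17.4% of all genes. Lower in PBS were 4 of 6 dendritic cell markers (Ccr7, Cd209a, Flt3 and Xcr1) and 3 of 9 T cell markers (Cd3d, Cd8b1 and Trac), against 16.5% of all genes. Dendritic list means ran from -1.84 to 0.58 in PBS and from 0.97 to 2.15 in 3day nt. The part of any of these in the integrin and laminin differences was not tested. The library numbers of the PBS and 3day nt samples fall in separate ranges, and cannot be told apart from the subsets.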

How the data were processed

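The 15 samples were profiled by poly(A) RNA-seq of total RNA, per the labels' protocols. The deposited values, for 17271 genes, are on a log2 scale and were centred per gene by the authors, per the table's own name. The submitters' processing notes name STAR, Salmon and mm10, without versions. The offset before the logarithm and the samples used for centring are not given in the sources used here. Only 6.51% of genes had a median of 0 over the 15 samples.

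Groups follow the sample titles, which agree in 15 of 15 samples with the model row of the table's header. Differences were estimated with limma 3.58.1 in R 4.3.3 (lmFit, eBayes without trend) over all genes, in 1 fit of the 15 samples. PBS and 3day nt used a fit of their 7 samples. The Benjamini-Hochberg threshold was 0.05, with no minimum fold. The fit was tested on simulated data. Scaling, variance model, sample weights, gene filters and left-out samples were varied.

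The genes, classes, partner and marker lists, and samples called high in skeletal muscle genes, were chosen with earlier results of these data known. Values per sample are given for up to 3 called genes per class with the largest difference, plus Itgb4, Itgb2, Itgb1, Lama3 and Lamb3, and 3 genes per partner list. Promoters and gene positions are from RefSeq GRCm38.p6. Of the 36 genes, 1 is counted in the totals but not reported individually here.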

Additional observations from a re-analysis of the deposited data

Results flagged for a closer look

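For each gene, the 2151R group, the 2208L group and its PBS samples were searched for a sample far from the rest, 108 groups in all, of which chance is expected to pick about 1 in 20, or 5.4. A sample stood apart in 4. Itga10 was 0.11 in replicate 1 of 2151R and -0.46 to -0.43 in the others. Itgae was -1.46 in replicate 5 of 2208L, against 0.02 to 0.20 in the other PBS samples. Itgax was 1.27 in the same sample, against 1.78 to 1.83. Itgb1 was 0.41 in replicate 2 of 2208L, against 0.10 to 0.13 in the other PBS samples.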

How the results depend on the processing

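The counts for 2151R against 2208L (10 higher, 15 lower) stayed within 1.5 times under every alternative run, with ranges of 8 to 10 and of 15 to 16 when a replicate was left out. Against 2208L, 2225L had 0 genes higher in the reported fit and 1 with the library prefix as a covariate, and 0 to 1 when a replicate was left out. Its 15 lower genes became 6 with sample weights. The calls lost were those of Itga2b, Itga4, Itga5, Itga8, Itgb2, Itgb3, Itgb5, Itgb6 and Lamb1. The 9 genes higher in 2225L than in 2151R became 4 with sample weights. The 14 genes higher in PBS than in 3day nt became 23 with sample weights and 6 with a minimum of 1 log2 unit. They ran from 4 to 17 when a replicate was left out. Over all genes the 3007 higher calls became 5938 with sample weights and 1206 with that minimum. They ran from 1362 to 3988 when a replicate was left out. The 1 lower gene, Itgb7, lost its call with sample weights, under which 2 other genes were called lower. The count of lower genes ran from 0 to 2 when a replicate was left out. Without the 3 samples high in skeletal muscle genes a lone 3day nt sample remained. In those 5 samples the differences of Lama3 (2.24), Itga1 (1.63) and Itgb7 (-2.10) were about as large, and those of most other called genes were smaller. Differences between 2225L and 2208L that changed sign were all of uncalled genes. Itga7 became 0.062 with quantile normalization. Lama3 became -0.32 with quantile normalization and -0.25 both with sample weights and without the muscle-high samples, and ran from -0.54 to 0.77 when a replicate was left out. Itgb7 ran from -1.87 to 0.37 and Lamc3 from -0.50 to 3.76. The cause of these changes was not tested. No paired analysis was possible because no replicate number in the titles is shared by groups. With depth unknown, the spread between samples alone limits precision.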

Other observations

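The genes beside the named integrins and laminins were read out for 2151R against 2208L, chosen by position after the integrin values were known. The order is that of RefSeq GRCm38.p6 among the 17271 genes with values, so genes without values may lie between those called nearest or beside. Only the neighbours of Itgb6, Itgb7, Itga8, Itga7 and Itga6 are given, which is a selection. Over all genes, 26.1% were called higher and 22.7% lower. Of the 6 genes nearest to Itgb6 (difference -5.68), Ly75 (2.92), Pla2r1 (0.89), Rbms1 (1.25), Tank (0.67) and Psmd14 (0.58) were called higher and Cd302 (0.74) was not called. Around Itgb7 (6.31), the nearest 6 lay between -0.44 for Csad and 1.36 for Soat2. Beside Itga8 (-4.65), E030013I19Rik differed by -5.14 (SE 0.49, limma adjusted p = 1.83e-06). It overlaps the start of Itga8 on the other strand, and since the use of strand in counting is not stated, reads of both cannot be told apart. Of its other 5 neighbours Pter (1.78) was called higher and 4 were not called. Beside Itga7 (3.68), the olfactory receptor gene Olfr805 differed by 6.43 (SE 0.50, limma adjusted p = 2.53e-07). Of its other 5 neighbours Cd63 (1.63), Rdh5 (2.28) and Bloc1s1 (0.67) were called higher and 2 were not called. Beside Itga6 (-1.76), the homeobox genes Dlx1 (-5.44) and Dlx2 (-3.10) and Pdk1 (-1.30) were called lower, Map3k20 (1.80) higher, and Metap1d and Rapgef4 were not called.

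In 2225L the laminin chains Lama1 and Lamc3 stood far apart between the 2 samples. Lama1 was 3.99 in replicate 1 and -1.97 in replicate 2, and Lamc3 was -1.48 and 2.77.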
